A study of Mus musculus with 2 samples.

Results

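Histone genes were divided here by symbol alone into replication-dependent genes, named Hist1 to Hist4 after their clusters, and replacement genes, named H1f, H2af and H3f. Hist1h1t, Hist1h2aa and Hist1h2ba, known from the testis, are thus counted with the replication-dependent genes. Members were all genes whose symbol starts in one of these ways and which have at least 1 transcript annotated as protein-coding in GENCODE M21. This gave 82 of the 21901 genes with such a transcript, 67 of them replication-dependent and 15 replacement. Another 9 genes of such symbols have no protein-coding transcript and were left out. Chromosome 13 carries 55 members, chromosome 3 carries 11, and the other 16 lie on 7 further chromosomes, the X included.

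Total RNA was sequenced from the adrenal gland of female B6CASTF1/J mice, a first-generation cross of C57BL/6J with CAST/EiJ, at 36 days of age. The study has 1 group of 2 libraries, each from 300 ng of ribosome-depleted RNA with ERCC spike-ins, so there was no comparison of conditions and no test between groups. The libraries are numbered 1 and 2 as biological replicates, but the labels conflict on whether they came from separate animals, so each SD may measure only the spread between libraries. For each library the authors deposited a gene table with expected counts and TPM from a transcriptome alignment, called alignment-derived here, and a transcript table with estimated counts and TPM from the reads themselves, called read-derived here. TPM is a level per effective transcript length, scaled to the same total in each table.

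Replication-dependent histones are made mainly in S phase, to package newly copied DNA. Their genes have no introns as a rule, and their mRNAs are known for ending in a conserved stem-loop, bound by SLBP, in place of a poly(A) tail. Replacement histones are made through the whole cell cycle from polyadenylated mRNAs and enter chromatin outside replication. In each nucleosome, pairs of H2A, H2B, H3 and H4 form the core, and H1 binds the linker DNA.

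The stem-loop is the sequence that sets the replication-dependent class apart, so it is shown first, for a highly expressed gene of each family and for the replacement gene that carries it. In the lines below the 16 bases of the stem-loop are in capitals, with 5 bases to each side in lower case, read 5′ to 3′ on the RNA strand with T for U.
Hist1h1c: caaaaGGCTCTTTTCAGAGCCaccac
Hist2h2aa2: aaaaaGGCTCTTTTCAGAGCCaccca
Hist1h2bg: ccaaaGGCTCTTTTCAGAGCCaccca
Hist1h3e: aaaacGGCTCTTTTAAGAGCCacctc
Hist1h4h: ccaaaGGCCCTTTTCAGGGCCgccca
Hist1h4d: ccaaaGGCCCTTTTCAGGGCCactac
H2afx: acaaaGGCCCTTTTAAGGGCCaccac

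All 7 windows lie in the annotated 3′ untranslated region of the gene, on mm10. The Hist1h1c window is at chr13:23739507-23739532 on the plus strand. The Hist2h2aa2 window is at chr3:96239779-96239804 on the minus strand. The Hist1h2bg window is at chr13:23571838-23571863 on the plus strand, and the Hist1h3e window at chr13:23561898-23561923 on the minus strand. On the plus strand, the Hist1h4h window is at chr13:23531453-23531478, the Hist1h4d window at chr13:23581945-23581970 and the H2afx window at chr9:44335235-44335260.

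The search asked, after the stop codon, for GG, a stem of 6 perfect base pairs and a loop of 4 bases with T as its bases 1 and 3. Of the 67 replication-dependent genes, 52 have 16 or more annotated bases after the stop codon, and 46 of these (88.5%) held the stem-loop. Among the 12 replacement genes with as many bases it was found in 1 (8.33%), H2afx, and among 20919 other protein-coding genes in 57 (0.272%). H2A.X, the product of H2afx, is the variant phosphorylated at DNA breaks. The 6 replication-dependent genes with 16 or more such bases and no match were Hist1h1a, Hist1h2bc, Hist1h2bq, Hist1h2br, Hist2h2be and Hist2h3b. The search misses a stem with any unpaired base or past the annotated end.

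The stem letters followed the family. GGCTCT opened the stem in all 34 matching genes of H1, H2A, H2B and H3, that is in 4, 11, 10 and 9 genes of these families. All 12 matching H4 genes had another stem, GGCCCT in 10 genes and, in Hist1h4b and Hist1h4j, GGTCCT. The H2afx stem had the letters of the H4 majority. One stem-loop, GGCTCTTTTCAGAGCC, was shared letter for letter by 26 genes.

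The annotated 3′ ends differ widely in how far they run. In 23 genes the longest matching transcript ends within 100 bases of the stem-loop, as in Hist1h4h, and in another 23 it runs further, by 840 bases in Hist1h1c and 770 in Hist1h4d. In 15 genes, Hist1h4k and Hist2h2bb among them, fewer than 16 bases after the stop codon are annotated. The poly(A) signal AATAAA, or its common variant with T as base 2, stood in the last 40 bases of a coding transcript in 17 of 51 replication-dependent genes and 9 of 12 replacement genes that have 40 or more bases after the stop codon. The share of all protein-coding genes with this signal is not given here. The median level was 16.2 TPM in the 23 genes that end near the stem-loop and 6.18 TPM in the 23 that run further. It was 11.3 TPM in the 15 with fewer than 16 bases and 23.1 TPM in the 6 with 16 or more and no match. These lengths enter the TPM of each gene, and their part in these medians was not tested. Of the 6 genes with no match, Hist2h3b has only 37 annotated bases after the stop codon. In Hist1h2bq and Hist1h2br most alignment-derived TPM was in transcripts of 381 bases that end at the stop codon. Hist1h2bq-201 held 99.1% and 97.6%, and Hist1h2br-202 98.4% and 99.5%, in replicates 1 and 2.

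Promoters were read from RefSeq on GRCm38.p6, which shares its coordinates with mm10, as 250 bases before and 50 after the annotated start, and 76 of the 82 members matched. The windows of Hist1h1d, H2afy2 and H1f0 lie 1770, 283 and 238 bases from the GENCODE start, and Hist1h2br was matched through its gene ID to a record whose symbol names H4; all 4 stay in the motif counts. 3 motifs were searched on both strands, the TATA box as TATAAA, the CCAAT box by its name's letters, and the octamer as ATTTGCAT. None of them contains another. TATAAA was found in 35 of 62 replication-dependent promoters (56.5%), in 1 of 14 replacement promoters (7.14%) and in 13.1% of 16701 protein-coding promoters of the same length. CCAAT was found in 53 of 62 replication-dependent promoters (85.5%), in 10 of 14 replacement promoters (71.4%) and in 39.1% of all. Within the replication-dependent class it stood in each H1, H2A, H2B and H3 promoter that matched but in 3 of 12 H4 promoters. The octamer, known from H2B promoters as a site of OCT1, was found in 7 of 18 H2A and 6 of 16 H2B promoters, in none of the H1, H3 and H4 promoters of the replication-dependent class, and in 1.69% of all.

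2 promoters show these layouts, with every match in capitals and the strand of the gene read 5′ to 3′. The Hist1h2bg window, at chr13:23571150-23571449 on the plus strand, holds all 3 motifs and also spans the start of Hist1h2ae, which is read the other way. The H3f3b window, at chr11:116024455-116024754 on the minus strand, is the only replacement promoter with TATAAA or with the octamer.
Hist1h2bg: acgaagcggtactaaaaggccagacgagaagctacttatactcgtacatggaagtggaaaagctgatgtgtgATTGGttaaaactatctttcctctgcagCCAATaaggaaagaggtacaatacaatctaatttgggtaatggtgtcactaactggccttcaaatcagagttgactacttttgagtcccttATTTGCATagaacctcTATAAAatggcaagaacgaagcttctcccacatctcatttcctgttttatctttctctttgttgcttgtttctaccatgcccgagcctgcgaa
H3f3b: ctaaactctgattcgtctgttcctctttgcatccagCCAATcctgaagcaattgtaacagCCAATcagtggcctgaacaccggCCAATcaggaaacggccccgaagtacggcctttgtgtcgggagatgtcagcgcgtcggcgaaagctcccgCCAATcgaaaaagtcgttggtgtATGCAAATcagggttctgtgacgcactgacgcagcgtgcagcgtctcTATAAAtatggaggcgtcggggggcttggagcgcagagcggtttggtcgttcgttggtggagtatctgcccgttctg

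H3f3b carried 4 CCAAT matches, the octamer read from the other strand and TATAAA, in this order toward its start. H3f3a, which encodes the same H3.3 protein, held a single CCAAT match and neither of the others. Paired genes share such windows: 12 H2A/H2B pairs and 1 H2B/H3 pair of members start head to head within 1000 bases, so their motif counts are not independent. A match is a description of letters and not of binding.

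In the alignment-derived gene tables, replication-dependent histone mRNAs summed to 1469 and 1398 TPM in replicates 1 and 2 (1433 ± 50.02, SD, n = 2). Replacement histone mRNAs summed to 590 and 603 TPM in replicates 1 and 2 (597 ± 9.16, SD, n = 2). Replacement genes, 15 of 82 members, thus held 28.7% of histone TPM in replicate 1 and 30.1% in replicate 2. A gene was called detected at 1 TPM or more in both libraries, which 72 of 82 members reached (87.8%), against 53.2% of all 21901 protein-coding genes. The median member stood at 12.8 TPM, against 1.73 TPM for all protein-coding genes.

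**Figure D1:**
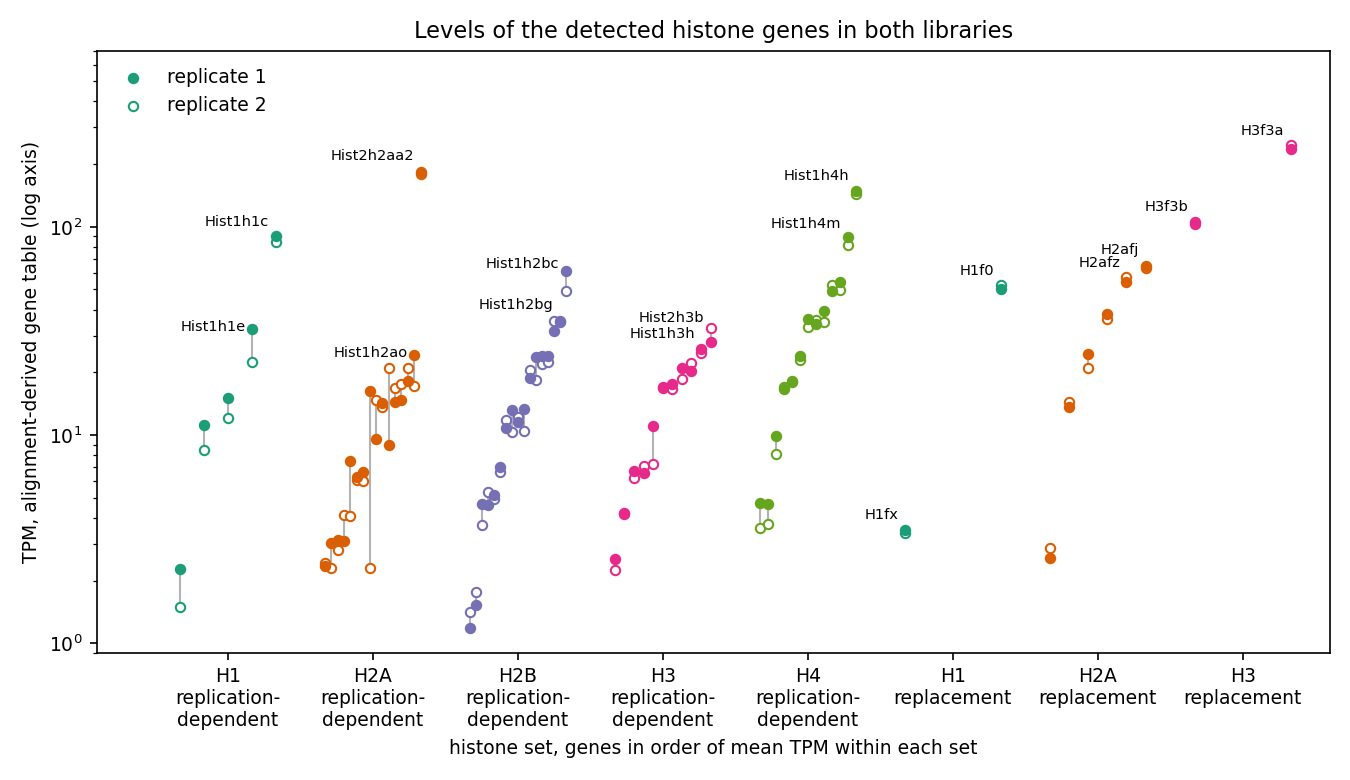
TPM of the 72 detected histone genes in the alignment-derived gene table (log axis), by class and family; filled points are replicate 1, open points replicate 2, and a grey line joins the libraries of a gene. H3f3a is the highest, Hist2h2aa2 and Hist1h4h lead the replication-dependent class, and the longest line, at 16.3 against 2.30 TPM, is Hist1h2ai.

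In these tables H4 was the most abundant replication-dependent family, at 528 and 505 TPM in replicates 1 and 2 over 13 genes, all of them detected. Hist1h4h, at chr13:23531050-23531519, led it with 148 and 144 TPM in replicates 1 and 2, and its share of H4 TPM was 55.76% and 55.52% read-derived, against 28.04% and 28.45% alignment-derived. Hist1h4m reached 89.1 and 82.0 TPM, and Hist1h4d 54.5 and 49.9 TPM, in replicates 1 and 2. The libraries were close for all 3, with replicate 1 higher each time.

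H2A followed in the alignment-derived tables, with 337 and 333 TPM in replicates 1 and 2 over 18 genes, 16 of them detected. The order was the other way in the read-derived tables, where H2A genes of this class summed to 729 and 701 TPM and H4 genes to 676 and 660.2 TPM in replicates 1 and 2. Hist2h2aa2, at chr3:96239749-96240276 on the minus strand, held most of the alignment-derived H2A sum, with 184 and 180 TPM in replicates 1 and 2. None of its 31-mers is its own: every one also occurs in Hist2h2aa1, its inverted copy nearby on the same chromosome, which had 7.54 and 4.10 TPM in replicates 1 and 2. The split between these copies is therefore uncertain, and their sum was 191 and 184 TPM. Hist1h2ao had 24.1 and 17.1 TPM in replicates 1 and 2, and Hist2h2ac 18.1 and 20.9 TPM.

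H2B genes summed to 291 and 271 TPM in replicates 1 and 2, with 17 of 18 detected. Hist1h2bc led with 61.1 and 49.0 TPM in replicates 1 and 2, and Hist1h2bg was level in both libraries, at 35.1 TPM each. Hist2h2bb had 31.7 and 35.1 TPM in replicates 1 and 2, but none of its 31-mers is unique, and all its 381 bases are covered by Gm20628 on the opposite strand and by Gm42743 on the same strand.

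H3 genes of the replication-dependent class summed to 161 and 159 TPM in replicates 1 and 2, with 11 of 12 detected and no dominant gene. Hist2h3b had 27.9 and 32.7 TPM in replicates 1 and 2. Hist1h3h had 26.02 and 24.83 TPM, and Hist1h3e 20.4 and 22.1 TPM.

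Linker H1 genes summed to 151 and 129 TPM in replicates 1 and 2, with 5 of 6 detected. Hist1h1c (H1.2) led with 90.2 and 84.8 TPM in replicates 1 and 2. Hist1h1e (H1.4) had 32.4 and 22.5 TPM, and Hist1h1a (H1.1) 14.99 and 12.08 TPM. Hist1h1d, annotated with 7425 bases, had 602 and 425 expected counts but only 2.28 and 1.5 TPM, since TPM divides by that length. By cluster, the 54 Hist1 genes held 1159 and 1091 TPM and the 10 Hist2 genes 297 and 296 TPM in replicates 1 and 2. The remaining clusters were low: Hist3h2a had 6.27 and 6.09 TPM, and Hist4h4 4.65 and 3.75 TPM.

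H3.3 dominated the replacement class. H3f3a, at chr1:180800832-180813943 on the minus strand, had 236 and 247 TPM in replicates 1 and 2 (241 ± 7.95, SD, n = 2), the highest level of any member. H3f3b had 103 and 105 TPM in replicates 1 and 2, part of it from transcripts not annotated as protein-coding, given below. Both genes encode H3.3, the H3 variant deposited by HIRA and by DAXX with ATRX, and together they made up 70.7% and 72.5% of all H3 TPM in the read-derived tables of replicates 1 and 2, against 67.8% and 68.9% in the alignment-derived ones.

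Replacement H2A genes summed to 198 and 195 TPM in replicates 1 and 2. H2afj (H2A.J) had 64.9 and 63.3 TPM. The H2A.Z genes, whose product marks promoters, stood at 54.5 and 57.2 TPM for H2afz and at 24.6 and 20.9 TPM for H2afv. MacroH2A, a variant with a large extra domain, was mostly H2afy, at 37.9 and 36.1 TPM, with H2afy2 at 2.58 and 2.86 TPM. H2afx had 13.6 and 14.5 TPM. Replacement genes made up 28.5% and 29.3% of H2A TPM in the read-derived tables of replicates 1 and 2, against 37.02% and 36.92% in the alignment-derived ones.

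Among replacement linker genes, H1f0 (H1.0), known for its rise in cells that stop dividing, had 50.1 and 52.5 TPM in replicates 1 and 2. H1fx had 3.50 and 3.40 TPM. Replacement genes made up 26.2% of H1 TPM in replicate 1 and 30.2% in replicate 2.

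Members known from the germ line were at or near 0 in the alignment-derived tables. H1foo (oocyte), H1fnt (spermatid), the H2A.B genes H2afb1 to H2afb3 (testis), and Hist1h2aa and Hist1h2ba (testis-type H2A and H2B) had 0 expected counts in both libraries. A count of 0 allows up to 3 counts, or a CPM (a count scaled to the same total in each library) of 0.0841 and 0.0775 in replicates 1 and 2, by counting error alone. Hist1h1t, the testis linker histone, had 4 and 3 counts. Markers of spermatogenic cells summed to 0.65 and 0.66 TPM over 6 genes in replicates 1 and 2, with Prm1 and Prm2 at 0, and those of oocytes to 1.58 and 2.46 TPM over 4 genes. Hist2h3c1 was also at 0, but all its 31-mers occur in other genes. Hist1h2ac was just under the detection level, at 0.98 and 0.93 TPM.

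Most histone mRNAs come from a single annotated transcript, and 12 members have more than 1. In H3f3a, H3f3a-207 (724 bases) held 63.1% of TPM in replicate 1 and 62.7% in replicate 2 in the read-derived tables, against 41.6% and 39.2% in the alignment-derived ones. There H3f3a-201 (888 bases) was ahead, with 50.3% and 52.1%. In H3f3b the coding transcripts changed places: H3f3b-202 had 77.3 and 78.3 TPM read-derived, against 0.51 and 0.31 TPM alignment-derived, while H3f3b-201 had 0 and 0 TPM read-derived, against 43.1 and 44.4 TPM. The other H3f3b transcripts are annotated as processed transcripts and not as protein-coding. H3f3b-204 held 33.1% and 36.3% of H3f3b TPM read-derived, against 50.1% and 53.6% alignment-derived. H3f3b-203 held 17.8% and 15.4% read-derived, against 7.40% and 3.99%. The short H2afj-202 had 1.19e-06 and 3.08 TPM read-derived, against 44.2 and 43.7 TPM alignment-derived. H2afz was the plainest case, with H2afz-201 at 98.5% and 91.96% read-derived, against 97.5% and 98.8% alignment-derived.

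The quantifications were compared gene by gene as the log2 ratio of read-derived over alignment-derived mean TPM + 1, among the genes at 1 TPM or more in either. The median ratio was 0.62 on the log2 scale over the 74 histone genes that passed and 0.71 over all 12909 protein-coding genes that did, a shift of the whole scale. Read-derived TPM was at least 2-fold higher in 18 of 74 histone genes, against 15.9% of all, and at least 2-fold lower in 8, against 0.325% of all. Relative to the overall shift, 8 histone genes were at least 2-fold higher and 18 lower, against 0.922% and 0.62% of all genes.

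TPM mixes counts with effective length, and the tables differ in both. For members with 1 transcript the alignment-derived effective length was the annotated length minus 99 bases, while the read-derived one was shorter. Hist1h4h, of 470 bases, had 155 read-derived, against 371 alignment-derived, and Hist1h4k, of 312 bases, had 70.7, against 213. Counts were therefore also compared, as CPM. Their median log2 ratio was -0.33 over histone genes and 0.15 over all protein-coding genes, which puts the histone genes at -0.48 relative to all. Read-derived counts were at least 2-fold higher in 5 of 74 histone genes, against 0.744% of all, and at least 2-fold lower in 23, against 0.542%. All 23 and all 5 were replication-dependent.

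**Figure D2:**
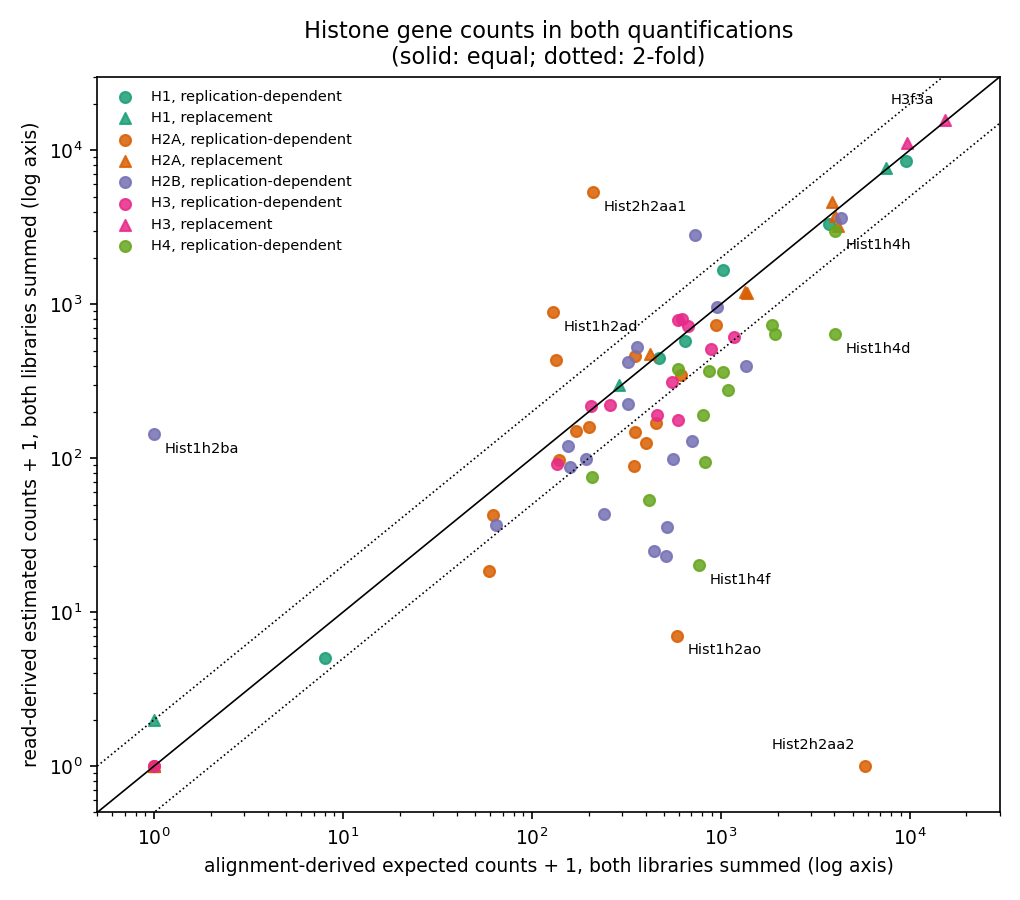
Read-derived estimated counts + 1 (vertical) against alignment-derived expected counts + 1 (horizontal), summed over both libraries for each of the 82 histone genes on log axes; colour is the family and shape the class, the solid line marks equal counts and the dotted lines 2-fold. Triangles, the replacement genes, lie along the solid line, while green H4 points lie below it and Hist2h2aa1 and Hist2h2aa2 lie far apart on either side.

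The counts held for replacement genes. They summed to 23638 and 25655 read-derived, against 22875 and 25262 alignment-derived, a ratio of 1.02. Replication-dependent genes summed to 23031 and 22051 read-derived, against 31759 and 31197 alignment-derived, a ratio of 0.716.

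H4 accounted for the larger share of this gap. H4 counts were 3455 in replicate 1 and 3373 in replicate 2 read-derived, against 9245 and 9252 alignment-derived, a ratio of 0.369. For H1 the ratio was 0.944, for H2A 0.84, for H2B 0.825 and for H3 0.756. At least 2-fold fewer read-derived CPM were found in 10 of 13 H4 genes, 7 of 18 H2B genes, 5 of 17 H2A genes and 1 of 11 H3 genes past the filter, and in none of 5 H1 genes. Hist1h4f had 2.67 and 4.52 TPM read-derived, against 34.2 and 35.7 TPM alignment-derived. Hist1h4d had 16.1 and 13.95 TPM, against 54.5 and 49.9 TPM, although 85.3% of its 31-mers occur in no other gene. Hist1h4h went the other way in TPM, at 377 and 367 TPM read-derived, against 148 and 144 TPM, and its CPM differed by -0.38 on the log2 scale.

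The 5 genes farthest up in read-derived TPM were H2A and H2B genes. Hist2h2aa1 had 403 and 387 TPM read-derived, against 7.54 and 4.10 TPM alignment-derived, and its copy Hist2h2aa2 had 0 and 0 TPM, against 184 and 180 TPM. The deposited interval of Hist2h2aa2 ran from 168 to 188 TPM in replicate 1, so it did not cover the 0 of the read-derived table. Hist1h2ad had 63.5 and 73.7 TPM read-derived, against 3.09 and 4.13 TPM, and Hist1h2ae 23.5 and 20.6 TPM, against 3.12 and 2.79 TPM. Hist1h2be had 26.6 and 23.2 TPM, against 4.69 and 3.69 TPM. It overlaps Hist1h1e by 496 bases on the same strand. Hist1h2ba had 7.45 and 47.5 TPM, with 19.1 and 123 estimated counts, against 0 in both libraries of the alignment-derived table, and the read-derived libraries stood well apart.

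Of the genes farthest down, Hist1h2br, Hist1h2bq and Hist1h2ao were near copies too, while Hist1h4f, given above, shares 45.7% of its 31-mers with its closest gene. Hist1h2br had 0.455 and 0.0161 TPM read-derived, against 24.1 and 22.0 TPM, and Hist1h2bq 0.242 and 0.68 TPM, against 23.9 and 22.5 TPM. Their deposited alignment-derived intervals were very wide. For Hist1h2br they ran from 0.284 to 45.5 TPM in replicate 1 and from 0.557 to 42.4 TPM in replicate 2. For Hist1h2bq they ran from 0.321 to 47.6 TPM and from 0.83 to 40.9 TPM. These genes share 98.3% of the 31-mers of Hist1h2bq. Hist1h2ao had 0 and 1.39 TPM read-derived, against 24.1 and 17.1 TPM, and shares 93.8% of its 31-mers with Hist1h2ap, which had 55.1 and 52.1 TPM, against 9.60 and 14.7 TPM. Hist1h2br and Hist1h2bq were thus both low in the read-derived tables, while Hist1h2ao was low beside a high copy.

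Genes were then pooled where they share at least 50% of the 31-mers of the smaller gene, which gave 8 groups, the largest of 14 Hist1 H2B genes. Groups were built by linking such pairs, so genes of the same group can share less. A pooled ratio averages over the genes of its group, so it always lies within the range of their single ratios. Some single genes had closer counts than their group. The Hist2h2aa1 and Hist2h2aa2 pair had 2659 and 2712 counts read-derived, against 2973 and 3067 alignment-derived, a ratio of 0.889. The ratio was 0.84 for the 14 Hist1 H2B genes, 0.824 for 12 Hist1 H2A genes, 0.718 for 9 Hist1 H3 genes and 0.873 for the Hist2 H3 genes. H4 stayed apart after pooling, at 0.503 for 7 Hist1 H4 genes and 0.296 for Hist1h4m with Hist1h4n. The remaining group, H2afb1 with H2afb3, had no counts.

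**Figure D3:**
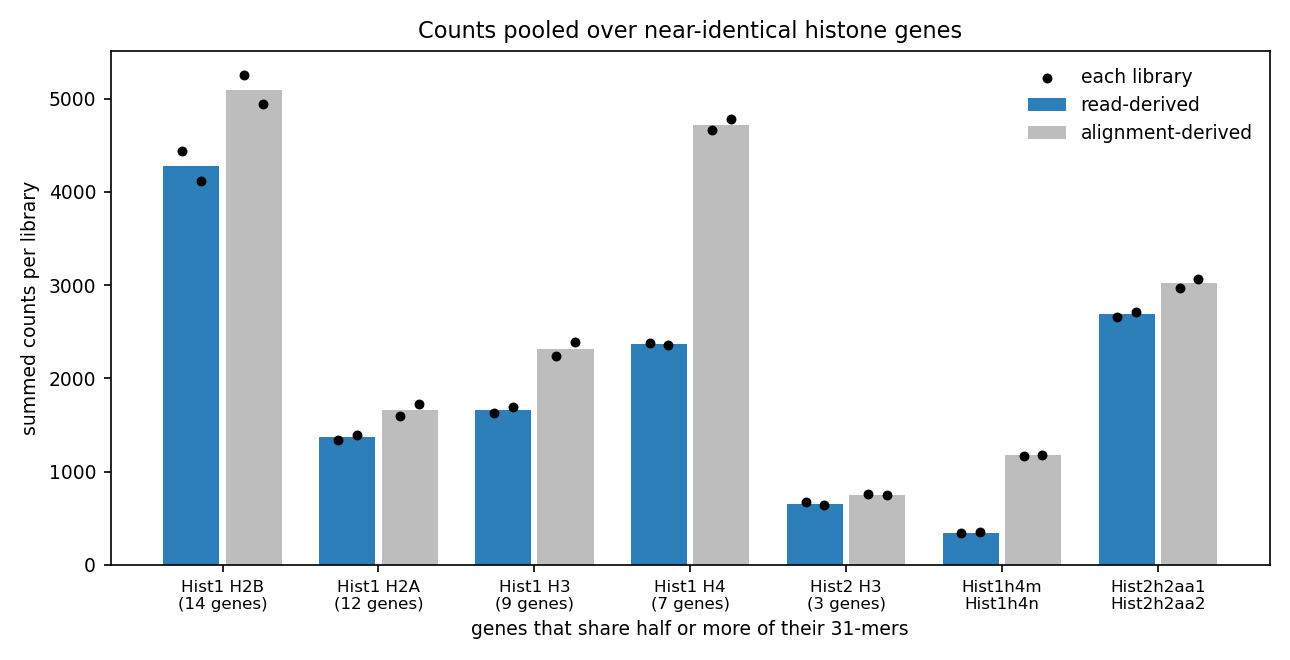
Counts per library pooled over groups of histone genes, linked by pairs that share at least 50% of the 31-mers of the smaller gene. Blue bars are read-derived, grey bars alignment-derived means of 2 libraries, and dots are the libraries. Blue is lower than grey in each group, and the Hist1 H4 group, at 2384 and 2362 against 4659 and 4782, shows the widest gap of the large groups.

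Among the 72 detected members, 20 had fewer than 20% of their 31-mers to themselves, and in 13 of these the CPM differed at least 2-fold between quantifications. The same held for 10 of 36 members with 20 to 80% and for 4 of 16 with 80% or more. Those 4 were Hist1h2be and the H4 genes Hist1h4d, Hist2h4 and Hist4h4. Length, taken from the longest annotated transcript, ran with it: 14 of 25 detected members under 500 bases were 2-fold apart, 7 of 21 members of 500 to 1000 bases and 6 of 26 of 1000 bases or more. Those 6 include Hist1h2bq and Hist1h2br, whose alignment-derived TPM was mostly in transcripts of 381 bases. The deposited posterior SD of the count was a median 1.72 and 1.97 times the square root of the count in the genes with under 20% of 31-mers to themselves, and 0 in those with 80% or more. Sharing, length and family move together in these genes, and their parts in the difference were not tested.

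**Figure D4:**
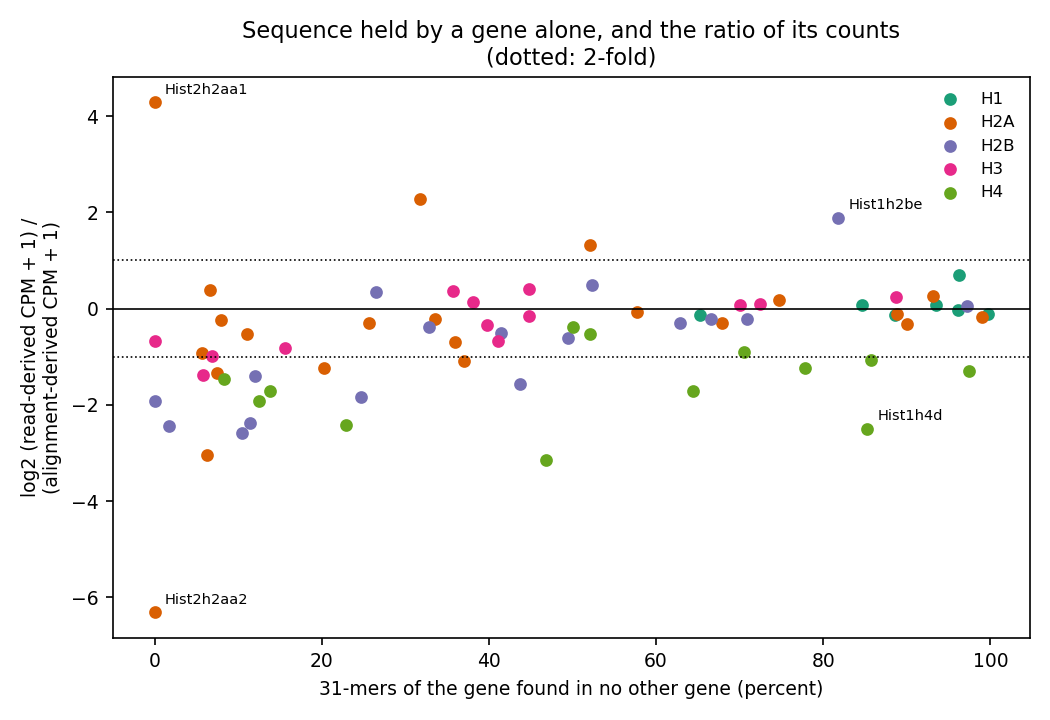
Log2 ratio of read-derived over alignment-derived CPM + 1 (vertical) against the percent of a gene's 31-mers found in no other gene (horizontal), for the 72 detected histone genes, coloured by family; dotted lines mark 2-fold. The spread is widest at the left, where Hist2h2aa1 and Hist2h2aa2 lie at 4.28 and -6.31, and at the right most points lie near 0 except Hist1h2be and 3 H4 genes.

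Annotated neighbours add doubt to single genes. 32 of the 82 members overlap another annotated gene, 29 of them on the opposite strand. The share of all protein-coding genes with such an overlap is not given here. In 20, all H2A genes, an opposite gene is annotated as a miRNA. None of these miRNA genes had more than 1 count in any library of either quantification. Some of the 20 have a further opposite gene with counts. H2afy2, with 193 and 230 expected counts in replicates 1 and 2, overlaps Aifm2, with 6508 and 7777, by 596 bases. Gm20633 covers Hist2h2aa1 and had 96.2 and 194 expected counts, and Gm20632 covers Hist2h2aa2 and had 110 and 188. Whether the counting used strand is not given in the sources used here. For members with a gene on the opposite strand, reads of both strands may thus be counted together.

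Between the libraries, the log2 ratio of replicate 1 over replicate 2 was taken on TPM + 0.1 for genes with 200 or more summed expected counts. Its median was 0.063 over the 61 histone genes that passed and -0.036 over 11598 protein-coding genes. 38 histone genes were higher in replicate 1 and 23 lower. The share of all genes higher in replicate 1 is not given here, for these counts or for those by family below. Members that share sequence are also not independent. A single member was 2-fold apart, 1 of 61, against 0.759% of all genes. It was Hist1h2ah, with 8.98 and 21.03 TPM in replicates 1 and 2, from 99 and 249 counts. Its share of all counts in replicate 1 was 0.431 times that in replicate 2, with an exact 95% interval from counting error of 0.338 to 0.546. That interval leaves out the doubt in dividing shared reads. The deposited TPM intervals of Hist1h2ah, 3.86 to 14.6 in replicate 1 and 11.6 to 25.2 in replicate 2, overlap. In the read-derived tables the order was turned round, at 19.2 and 11.3 TPM in replicates 1 and 2, and only 7.47% of its 31-mers are its own.

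**Figure D5:**
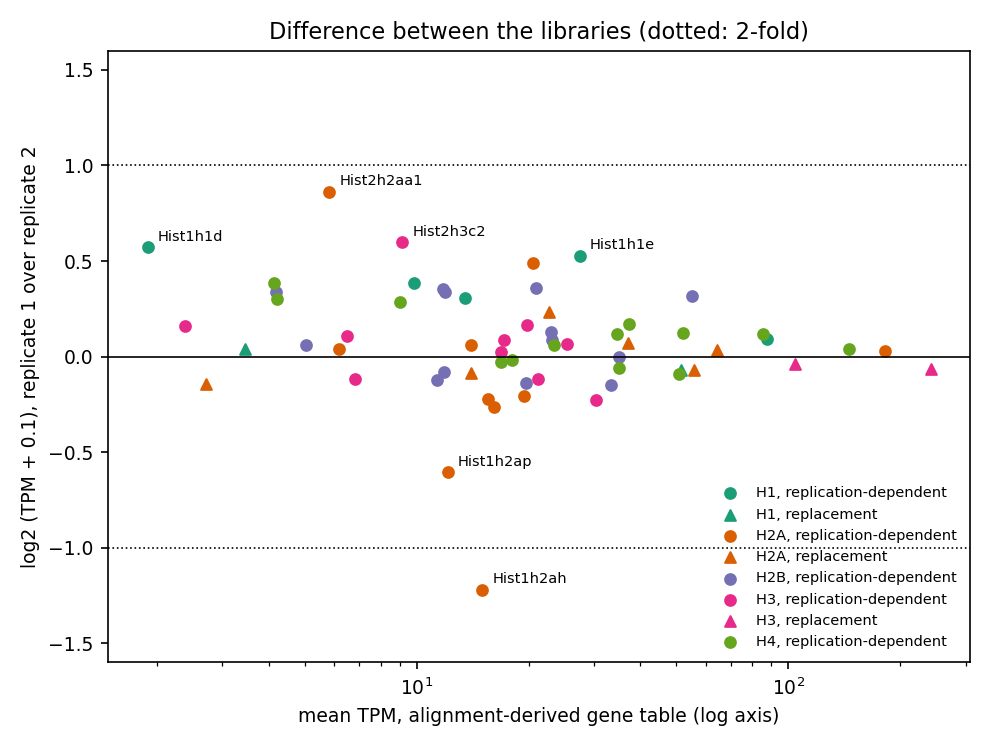
Log2 ratio of TPM + 0.1, replicate 1 over replicate 2 (vertical), against mean TPM on a log axis (horizontal), for the 61 histone genes with 200 or more summed expected counts; colour is the family, shape the class, and dotted lines mark 2-fold. Hist1h2ah, at -1.22, is the only point past a dotted line, and the 5 replication-dependent H1 genes lie above 0.

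The other H2A genes with gaps also share sequence with other members. Hist1h2ap had 9.60 and 14.7 TPM in replicates 1 and 2. Hist1h2ab, with 37.0% of its 31-mers to itself, had 14.7 and 17.6 TPM. Hist2h2aa1 had 7.54 and 4.10 TPM. Hist1h2ai, named after its values were seen, had 16.3 and 2.30 TPM but fewer than 200 summed counts. Summed over the 12 Hist1 H2A genes the libraries were level, at 119 TPM each. Hist2h3c2 had 11.0 and 7.24 TPM in replicates 1 and 2.

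The H1 genes showed the only one-sided family in the replication-dependent class. All 5 that passed the filter were higher in replicate 1, with a median of 0.39 on the log2 scale, from 0.09 for Hist1h1c to 0.57 for Hist1h1d. H3f3a and H3f3b were at -0.07 and -0.04, near the median of -0.036 over all protein-coding genes that passed. Bulk RNA cannot tell a change in the number of cells of a type from a change in RNA per cell. The libraries also differed in tissue make-up by their markers, whose part in these ratios was not tested. Skeletal muscle markers summed to 258 and 2.08 TPM in replicates 1 and 2, with 6 of 6 genes at least 2-fold higher in replicate 1. Chromaffin markers summed to 1480 and 1110 TPM and red blood cell markers to 2383 and 1876 TPM, with 5 of 5 genes higher in replicate 1 in each list. Adrenal cortex markers, Star and Cyp11a1 among them, were close, at 16266 and 16733 TPM over 6 genes, so the labelled tissue was plain in both. Brown fat markers were at 1483 and 1398 TPM, liver markers at 33.8 and 2.28 TPM, and lymphocyte markers at 0.65 and 0.84 TPM, in replicates 1 and 2.

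Genes that act on histones were read from lists. Of 18 genes of histone gene transcription and 3′ processing, 17 were found under the listed symbol and 16 were detected, with a median of 12.4 TPM. The highest were Srrt, which links the cap-binding complex to RNA processing, at 40.7 and 31.4 TPM in replicates 1 and 2, the cleavage scaffold Sympk at 28.9 and 26.9 TPM, and the endonuclease Cpsf3 at 22.8 and 23.4 TPM. Slbp, the stem-loop binding protein, named for its role after its value was seen, had 11.9 and 13.6 TPM. Zfp473, the binding partner of the U7 particle, was the member not detected, at 0.06 and 0.15 TPM.

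All 30 genes of the chaperone and loading list were detected, with a median of 14.7 TPM. Npm1 led at 93.2 and 91.1 TPM in replicates 1 and 2, followed by Rbbp7 at 52.4 and 51.2 TPM and Nap1l1 at 49.0 and 42.6 TPM. The S-phase and division list was lower, with a median of 3.08 TPM and 27 of 30 detected. Its highest genes were Pcna, the polymerase clamp, at 26.1 and 29.3 TPM, and the helicase subunits Mcm7 at 10.2 and 10.5 TPM and Mcm2 at 10.2 and 8.79 TPM. Among the genes of these 3 lists with 200 or more summed expected counts, none was 2-fold apart between the libraries, against 0.759% of all protein-coding genes. Median log2 ratios were 0.02, 0.01 and -0.04 for the processing, chaperone and S-phase lists.

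Head-to-head partners, which share a promoter region, could differ widely in level. Hist1h2bc had a mean of 83.7 TPM and its partner Hist1h2ac 1.31 TPM read-derived, against 55.1 and 0.955 TPM alignment-derived. Hist2h2ac had 33.4 TPM and its partner Hist2h2be 7.95 TPM read-derived, against 19.5 and 5.06 TPM. Counts had the other order, and the annotated lengths are 520 and 2620 bases. Hist2h2ac had 275 and 340 expected counts in replicates 1 and 2, and Hist2h2be 469 and 483. Estimated counts were 159 and 186 for Hist2h2ac, and 483 and 477 for Hist2h2be. The Hist1h2bg and Hist1h2ae pair, 176 bases between starts, was nearly level at 26.1 and 22.03 TPM read-derived, against 35.1 and 2.96 TPM alignment-derived, so its gap was not seen in both tables. Hist1h2bq and Hist1h2ao were alike, at 23.2 and 20.6 TPM, in the alignment-derived tables, but both were below 1 TPM on average in the read-derived ones. The level of Hist1h2bq has the wide interval given above. Levels of paired genes thus carry the doubt about shared sequence given above, and their TPM also depends on annotated length.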

How the data were processed

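Members, lists and comparisons were chosen with earlier results of these data known. Total RNA-seq of 2 adrenal libraries was used. Per the file headers, the deposited gene and transcript tables hold an expected count, TPM, a posterior SD of the count and bounds of a TPM interval, read here as a signal of unstated level, and the read-derived tables hold an estimated count and TPM. The deposited isoform percent was not used; transcript shares were computed from TPM. Per the text beside the deposited files, mm10 and GENCODE M21 were used. Which tools and versions made the tables is not given in the sources used here.

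Replicates 1 and 2 held 34946406 and 37598352 read-derived counts in all, against 35684781 and 38701795 expected counts. Over protein-coding genes with 10 or more counts in both, the replicates differed by more than counting noise, with a chi-square of 17.9 per degree of freedom. Intervals and floors cover counting error only. Expected counts were rounded for edgeR 4.0.16 (TMM) and DESeq2 1.42.0 (size factors), in R 4.3.3. The TMM step was tested on simulated counts with counting noise only, which is less than these replicates showed. Other steps used Python 3.11.15 with pandas 2.3.3 and scipy 1.17.1.

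Sequence sharing used all 31-mers of each gene's GENCODE transcripts, on both strands, against all transcripts. RefSeq promoters were matched by Entrez gene ID. The window nearest a GENCODE start was taken, and for all promoters the first listed.

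Named genes were the 3 highest of each replication-dependent family, the detected replacement genes, the 5 farthest each way between quantifications, the 3 farthest each way between replicates, the highest of each cluster and the 3 highest of each related list.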

Additional observations from a re-analysis of the deposited data

How the results depend on the processing

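Without either replicate, the summed TPM was 1398 to 1469 for replication-dependent and 590 to 603 for replacement genes, the replacement share 28.7% to 30.1%, the detected members 72 in both cases, the members 2-fold apart between quantifications 27 in both cases, and their median log2 ratio 0.60 to 0.64. Read-derived, the sums were 2270 and 1094 TPM and the replacement share 32.5%. Rescaled to nuclear protein-coding genes, which held 31.2% of alignment-derived TPM in both libraries, the sums were 4596 and 1913 TPM. The count of detected members was 70 to 73 and that of members 2-fold apart between quantifications 26 to 30 under all alternatives run.

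The median log2 ratio between quantifications was 0.66 with TPM + 0.1, 0.57 without the filter and -0.085 relative to the median of protein-coding genes, an alternative chosen after seeing the data, which subtracts the shift of 0.71. The 1 member 2-fold apart between replicates became 2 with 50 or more counts or with no filter, by adding Hist1h2ai, and 0 in the read-derived tables. The median between replicates was 0.059 with TPM + 1, 0.041 without the filter, 0.092 with TMM scaling, 0.088 with DESeq2 size factors and 0.069 read-derived. No paired analysis was possible because the study has 1 group.

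With 2 libraries, an SD rests on 1 difference. Levels of single members with little sequence of their own depend on how each tool divides shared reads.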

Other observations

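Genes named like histones but with no protein-coding transcript also took reads, and by quantification. Hist1h2al had 0 and 0 estimated counts read-derived, against 295 and 318 expected counts alignment-derived, and H3f3c had 0 and 0, against 63.5 and 89.0. H3f3aos, antisense to H3f3a, had 74.0 and 54.6 counts, against 59 and 43. All 9 such genes summed to 83.1 and 65.8 counts read-derived, against 428 and 459 alignment-derived. Gm20634, a non-coding gene that covers Hist2h3c1 and overlaps Hist2h2aa1 on the same strand, had 978 and 809 counts read-derived, against 769 and 617 alignment-derived. Both tables gave Hist2h3c1 itself 0 counts.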
